A study of Drosophila melanogaster with 2 samples.

Results

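Cuticle protein genes encode the structural proteins that bind chitin or otherwise build the insect exoskeleton. They were taken by symbol: protein-coding genes of the dm6 annotation whose symbols begin with Cpr and a number, Twdl, Lcp, Ccp, Pcp, Edg, Cpap or obst-. The gene Cpr, with no number, encodes cytochrome P450 reductase and was left out. The rule found 129 genes among 13945 protein-coding genes on the chromosome arms. The Cpr symbol accounted for 70 of them, Twdl for 25, Lcp for 15, obst for 8, Ccp for 7, Edg for 3 and Pcp for 1, and no gene carried the Cpap symbol. The symbol rule uses no peak value, but cuticle genes were chosen as the subject with earlier results of these data known.

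The binding data came from whole Drosophila melanogaster pupae, aged 24 hours, of a transgenic line that stably carries the homeodomain protein CG34367 fused to GFP at its C-terminus. Chromatin was sonicated to 200 to 800 bp, the tagged protein was recovered with an antibody against GFP, and 2 libraries, biological replicates 1 and 2, make up the single group. The labels do not say from which event the 24 hours ran, which promoter drives the fusion or how many animals were pooled, and sex was not collected. The control used in peak calling was not analysed here, and read depth is unknown.

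The joint list held the 6270 peaks that passed the authors' threshold on repeatability. These were the 6270 strongest of the 30000 peaks in the list of both libraries pooled. A joint peak need not be present in each library: the one nearest to Cpr47Ec overlapped no peak of replicate 2. The signal values of the joint list, a score given by the authors' peak caller, ran from 137 to 4557 with a median of 248. The list of each replicate also held 30000 peaks, so its 6270 strongest were set beside the joint list. With whole animals, a site bound in few cells and a site bound weakly in many cannot be told apart. Peaks and genes are not replicates, so the values are counts and shares, with no p-value.

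The cuticle is secreted at the apical face of the epidermis and its derivatives as layers of chitin fibres, lipids and proteins. Cpr proteins carry the Rebers and Riddiford consensus, a chitin-binding stretch shared across arthropods. Tweedle proteins, encoded by the Twdl genes, form another structural family, known for mutations that change body shape, and the obst genes encode proteins with chitin-binding domains of the peritrophin type. Lcp, Ccp, Pcp and Edg are older names, for larval cuticle, a cuticle gene cluster, pupal cuticle and ecdysone-dependent genes, and many of these products belong to the Cpr family. Cuticle genes are switched on and off in the wake of pulses of the moulting hormone ecdysone, so that larval, pupal and adult cuticles differ in their proteins. Many sit side by side in tandem arrays of short genes.

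Few cuticle protein genes carried a CG34367 peak at their start. A joint summit lay within 500 bp of a transcription start site (TSS) in 2 of the 129, a share of 1.55%, against 17.4% of all protein-coding genes. The genes were Cpr72Ea and Cpr12A. In 4 others, or 3.1%, a joint summit fell inside the transcribed span, against 13.3% of all protein-coding genes. These were obst-B, Cpr51A, Cpr62Ba and Cpr73D, and in each the summit was intronic. A further 4 joint summits lay between genes inside tandem arrays. Among the cuticle protein genes, those nearest to them were Cpr72Eb, Cpr65Ay, Cpr47Ec and Cpr65Ec. A gene was counted at the TSS if a summit lay near any of its annotated TSSs, and 118 of the 129 have only 1. Genes with more TSSs have more places to be counted, and protein-coding genes with 1 TSS were not counted apart.

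The DNA around these summits is shown because the motif counts below were made in it. Contact of the protein with this DNA was not measured base by base. Each line gives 50 bp on either side of a joint summit on the plus strand, as read from the RefSeq copy of dm6 (Release 6). Capitals mark TAATTA and TAATTG, core sequences known to be bound by many homeodomain proteins, sought on both strands. No window overlaps an annotated exon.
Cpr12A, at the TSS, chrX:13543326-13543426: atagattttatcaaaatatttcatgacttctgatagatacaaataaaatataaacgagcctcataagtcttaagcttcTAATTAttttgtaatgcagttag
Cpr72Ea, at the TSS, chr3L:16362278-16362378: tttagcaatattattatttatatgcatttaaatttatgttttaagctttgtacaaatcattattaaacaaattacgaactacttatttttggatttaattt
Cpr72Eb, in the array, chr3L:16364329-16364429: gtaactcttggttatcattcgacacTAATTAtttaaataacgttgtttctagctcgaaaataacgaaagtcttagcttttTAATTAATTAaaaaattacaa
Cpr62Ba, in an intron, chr3L:1829711-1829811: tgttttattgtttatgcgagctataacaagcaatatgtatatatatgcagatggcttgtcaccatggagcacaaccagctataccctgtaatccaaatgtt
Cpr73D, in an intron, chr3L:16941356-16941456: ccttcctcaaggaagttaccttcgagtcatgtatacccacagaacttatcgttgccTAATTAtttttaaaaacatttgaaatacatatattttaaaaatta
obst-B, in an intron, chr2L:10036165-10036265: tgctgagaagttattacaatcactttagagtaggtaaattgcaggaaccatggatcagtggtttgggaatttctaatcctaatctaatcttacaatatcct
Cpr65Ay, in the array, chr3L:6155290-6155390: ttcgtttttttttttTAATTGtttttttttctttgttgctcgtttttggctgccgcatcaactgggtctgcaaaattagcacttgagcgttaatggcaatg
Cpr65Ec, in the array, chr3L:7090981-7091081: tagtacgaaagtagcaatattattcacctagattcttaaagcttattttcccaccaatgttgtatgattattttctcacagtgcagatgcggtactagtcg

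Windows at Cpr51A and Cpr47Ec were counted but are not shown. TAATTA occurred in 3 of the 10 windows, or 30%, against 9.33% of the windows at all 6270 joint summits. Those 3 were at Cpr72Eb, Cpr73D and Cpr12A, and the window at Cpr72Eb held 3 copies, of which 2 overlap. TAATTG occurred in 1 window, at Cpr65Ay, against 10.4% of all. The median GC content was 30.2% in the 10 windows and 31.7% in all joint windows. With 10 windows these shares describe these sites only, and a match of 6 letters is not a measured contact.

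The peak at Cpr12A (FBgn0030494, X) spanned 13543186 to 13543565, with its summit 267 bp upstream of the only annotated TSS. Its signal was 155, rank 5444 of the 6270 joint peaks. The overlapping peak ranked 8088 in replicate 1, with a signal of 53.6, and 4523 in replicate 2, with a signal of 96.6. Cpr72Ea (FBgn0036617, 3L) had its peak at 16362138 to 16362517, 275 bp upstream of its only TSS, with a signal of 162 and rank 5187. That peak ranked 7542 in replicate 1 (signal 57.0) and 4381 in replicate 2 (signal 99.2). Both peaks thus lay low in the joint list and among the 6270 strongest of replicate 2, but outside the 6270 strongest of replicate 1. Signal values of different lists are on scales that were not given, so ranks are compared here within each list. The nearest gene outside the 500 bp limit was Cpr72Eb, at 520 bp.

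The intronic peaks ranked higher. Cpr62Ba (FBgn0035279) held the strongest, in intron 1 of 2 at 3L, 1829571 to 1829950, with a signal of 297 and rank 2489. It ranked 2470 in replicate 1 and 2521 in replicate 2, and its summit lay 819 bp upstream of the nearer of the TSSs of the gene. The Cpr73D peak, in intron 2 of 3 (3L, 16941216 to 16941595), had a signal of 246, rank 3152, and ranked 3566 in replicate 1 and 3602 in replicate 2. These places were close in both libraries.

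Ranks of the remaining intronic peaks differed more between the libraries. The peak in the only intron of Cpr51A (2R, 14513610 to 14513989; signal 219, rank 3667) ranked 4990 in replicate 1 and 2629 in replicate 2. Its summit was also 230 bp from a TSS of CG30197, so the peak cannot be given to one of these genes by position. The peak in intron 2 of 5 of obst-B (2L, 10036025 to 10036404; signal 212, rank 3796), a gene for a secreted chitin-binding protein, ranked 6391 in replicate 1 and 3219 in replicate 2. That put it just outside the 6270 strongest of replicate 1.

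The strongest joint peak in any of the arrays lay between Cpr72Ea and Cpr72Eb, with its summit 520 bp upstream of the Cpr72Eb TSS (3L, 16364244 to 16364509). It had a signal of 566 and rank 939, and ranked 1334 in replicate 1 and 687 in replicate 2. The peak 3290 bp downstream of the Cpr65Ay TSS (3L, 6155232 to 6155428) had a signal of 289 and rank 2574, and ranked 6653 in replicate 1 and 1499 in replicate 2. TSSs of CG13297, at 2037 bp, and of the adult cuticle gene Acp65Aa, at 2595 bp, were closer to this summit than that of any of the 129 genes. The peak nearest to Cpr47Ec (2R, 11258882 to 11259261; 904 bp downstream of its TSS and past its end), with rank 5513, ranked 5526 in replicate 1 and overlapped no peak of replicate 2. The peak 2173 bp upstream of Cpr65Ec (3L, 7090841 to 7091220), with rank 6228, ranked 5627 in replicate 1 and 7442 in replicate 2.

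**Figure D1:**
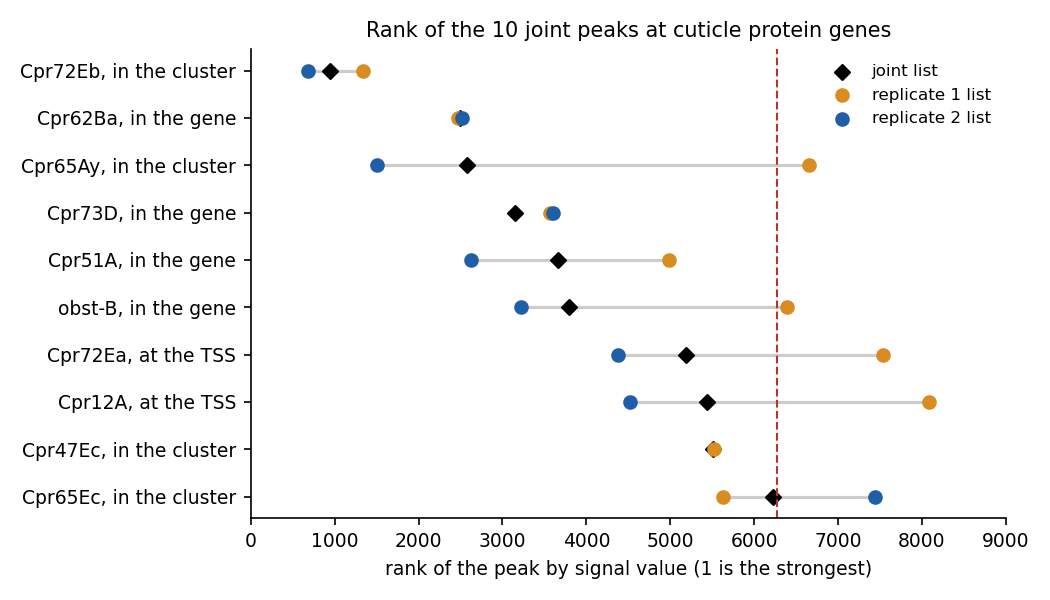
Rank by signal value (horizontal axis, 1 is the strongest) of the 10 joint peaks at cuticle protein genes or in their arrays, in the joint list (diamonds) and in the list of each replicate (circles); the dashed line marks rank 6270. Cpr72Eb, Cpr62Ba, Cpr73D and Cpr51A sit left of the line in both replicates, and the peak at Cpr47Ec has no circle for replicate 2.

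Of the 6 joint peaks at a TSS or in the span of a cuticle protein gene, 3 overlapped one of the 6270 strongest peaks of both replicates, at Cpr62Ba, Cpr73D and Cpr51A. Of all joint peaks, 4685, or 74.7%, did so. All 6 were among the strongest of replicate 2 and 3 among those of replicate 1, and 5 of the 6 lay in the weaker 3135 of the joint list. With rank set aside, each of the 6 had an overlapping peak in both complete replicate lists.

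Each library was then counted on its own. Among the 6270 strongest peaks of replicate 1, the count was 0 of 129, which allows a share of up to 2.33% (3 genes, counting error only), against 18.3% of all protein-coding genes. In replicate 2 it was 2 of 129 (1.55%), again Cpr72Ea and Cpr12A, against 17.1%. For spans, 3 genes (2.33%) had a summit in replicate 1, against 13.4% of all protein-coding genes, and 4 (3.1%) in replicate 2, against 13.4%. Replicate 1 lacked obst-B.

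Lower thresholds added few cuticle protein genes at first and more among the weakest peaks. Cut at a q-value of 0.05, the pooled list held 13029 peaks, and still only Cpr72Ea and Cpr12A (1.55%) had a summit at a TSS, against 30.1% of all protein-coding genes. The q-value list of replicate 1, with 9154 peaks, added Cpr97Ea, to make 3 genes or 2.33%, against 24.3%. That of replicate 2, with 18385 peaks, reached 7 genes or 5.43%, against 36.1%: Cpr51A, Cpr67Fb, Cpr72Ea, Cpr97Ea, Cpr100A, Cpr12A and obst-A. With all 30000 peaks, the count was 14 (10.9%) in the pooled list against 41.4% of all protein-coding genes, 21 (16.3%) in replicate 1 against 40.7%, and 14 (10.9%) in replicate 2 against 42.9%.

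**Figure D2:**
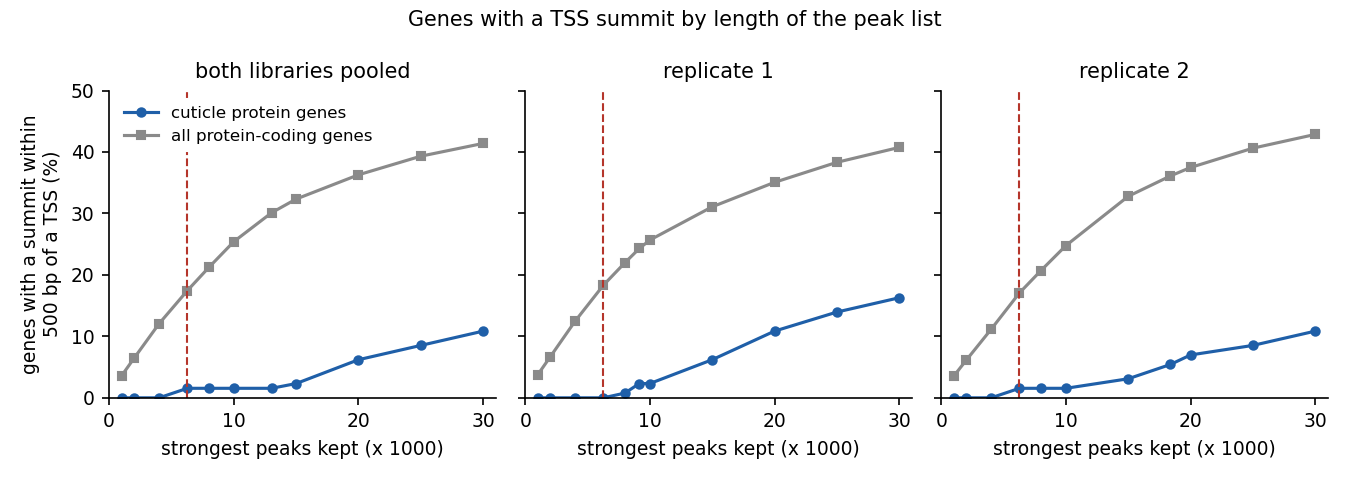
Percentage of genes with a summit within 500 bp of a TSS (vertical axis) as more of the strongest peaks of each list are kept (horizontal axis, number of peaks in units of 1000), for the 129 cuticle protein genes (circles) and all 13945 protein-coding genes (squares); the dashed line marks 6270 peaks. The cuticle line lies below the other at each length plotted in each list, at 10.9% against 41.4% for the whole pooled list.

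Most of the peaks at cuticle gene starts in the full lists were present in 1 library. A summit at a TSS was present in at least 1 of the 2 full replicate lists for 30 cuticle protein genes, and in both for 5 of them (16.7%): Cpr65Ea, Cpr72Ea, Cpr97Ea, Cpr97Eb and Cpr12A. Of all protein-coding genes, 7456 had one in at least 1 list and 4201 in both, or 56.3%. Both shares take peaks of any rank.

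In the pooled list, 16 peaks below the joint threshold had their summit at the TSS of 13 cuticle protein genes, at ranks from 14511 to 29317 and q-values from 0.0940 to 0.745. The strongest lay inside Cpr97Ea, 133 bp upstream of an internal TSS of that gene (3R, 27086562 to 27086941), with a signal of 60.9. It stood at rank 21318 in replicate 1 and 12408 in replicate 2. It was followed by Cpr97Eb, its neighbour, at pooled rank 16512 (19089 in replicate 1 and 19216 in replicate 2), and Cpr62Ba at pooled rank 16562 (13288 in replicate 1 and 25616 in replicate 2). Cpr100A followed at pooled rank 17113 and Cpr72Ea at 18135. The second overlapped the replicate peaks of its joint peak, but each library also had another summit closer to the TSS. These lay at 85 bp (rank 18859) in replicate 1 and at 110 bp (rank 7064) in replicate 2. Cpr47Ed (18837), Cpr65Eb (19730), Cpr62Bc (22772), obst-A (23139) and Lcp65Ad (24831) completed the 10 genes with the strongest such peaks. Only 4 of the 16 peaks overlapped a peak in both replicate lists, those at Cpr97Ea, Cpr97Eb, Cpr62Ba and Cpr72Ea.

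Cuticle protein genes are short, with a median span of 989 bp against 2166 bp for all protein-coding genes, and a short gene has less room for a summit. Among genes of at most 1519 bp, the 75th percentile of the cuticle genes, 2 of 97 cuticle genes (2.06%) had a joint summit at a TSS, against 9.58% of 4866 protein-coding genes. None of the 97 had one in its span, which allows up to 3.09%, against 1.97% of the same 4866, so a difference in the span was not detectable among short genes. Among longer genes, 4 of 32 (12.5%) had one in the span, against 19.4% of 9079. This class has no upper limit on length, so the 2 shares are not matched for length.

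Near-identical neighbours can share reads. In the 500 bp either side of the TSS, 118 of the 129 genes had at most 10% of words of 50 bases repeated elsewhere on the arms, and 108 had none. The other 11 were Lcp65Ab1 and Lcp65Ab2 at 85.1%, Cpr65Ax1 at 70.0%, Cpr65Ax2 at 68.0%, the 3 Lcp65Ag genes, Lcp65Aa, Ccp84Aa, Ccp84Ab and TwdlL, the last at 11.8%. Cpr72Ea and Cpr12A are among the 118. How reads with several matches were treated is not stated in the labels, so an absence of peaks at those 11 genes is uncertain.

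Beyond the start site, joint summits were also farther away. The distance from a cuticle protein gene to its nearest joint summit had a median of 14540 bp and quartiles of 5534 and 27829 bp, against a median of 6926 bp and quartiles of 1690 and 18176 bp for all protein-coding genes. With the 6270 strongest peaks of replicate 1 the medians were 15462 bp and 6782 bp, and with those of replicate 2 they were 18554 bp and 7085 bp. Within 1000 bp, 5 cuticle genes (3.88%) had a joint summit, against 21.0% of all protein-coding genes. Within 5000 bp there were 29 (22.5%) against 42.3%, and within 20000 bp 79 (61.2%) against 77.3%. Neighbouring cuticle genes often share their nearest summit, so these are not independent observations.

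The families differed in distance. The 70 Cpr genes had a median of 8216 bp and ranged from 267 to 52429 bp, and the 8 obst genes a median of 6803 bp. The 15 Lcp genes had a median of 18549 bp and the 25 Twdl genes one of 25379 bp, with 5953 bp as the lowest value. Of the 25 Twdl genes, 12 stand in the array from TwdlM to TwdlD. All 7 Ccp genes lay between 55612 and 72968 bp from a joint summit, in the same array and with the same nearest summit. Family medians thus rest on few places in the genome. Of the 3 Edg genes, Edg84A, at 75251 bp, lies beside the Ccp genes, and the other 2 were at 6768 and 6949 bp. Pcp, a pupal cuticle protein gene inside an intron of the purine synthesis gene Gart, was 2462 bp from a summit at a TSS of Gart.

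**Figure D3:**
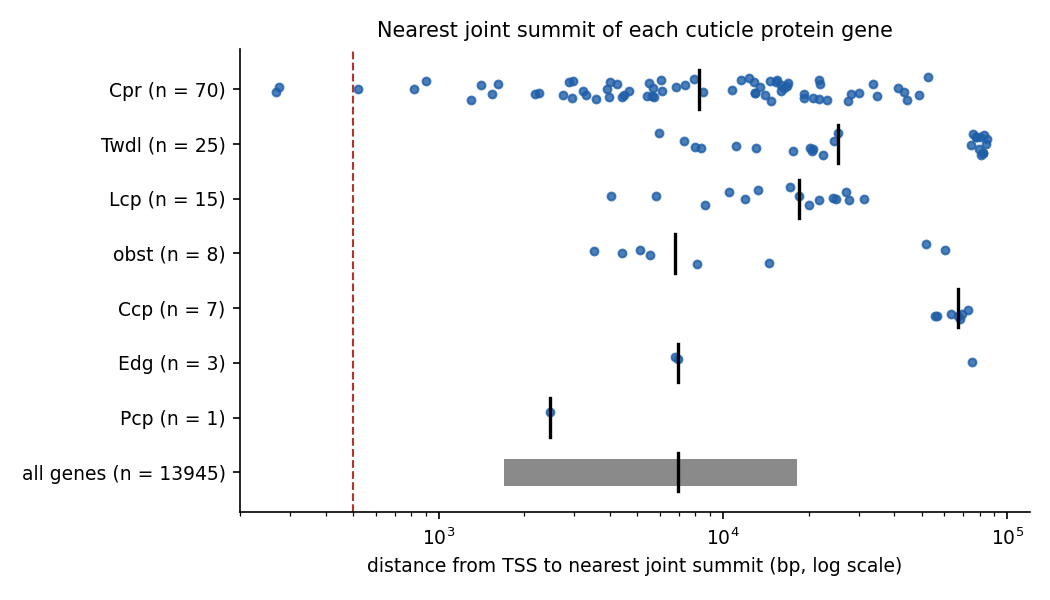
Distance from the TSS of each cuticle protein gene to its nearest joint summit (horizontal axis, bp on a log scale), by family, with the family median as a bar; the bottom row gives the median and quartiles of all 13945 protein-coding genes, and the dashed line marks 500 bp. The 7 Ccp points and a group of Twdl points lie beyond 50 kb, while 2 Cpr points, Cpr12A and Cpr72Ea, lie left of the line.

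The nearest genes to a joint summit were Cpr12A (267 bp), Cpr72Ea (275 bp), Cpr72Eb (520 bp), Cpr62Ba (819 bp) and Cpr47Ec (904 bp), all of the Cpr family. The farthest were TwdlK (85143 bp), TwdlJ (84448 bp), TwdlO (83157 bp), TwdlN (82497 bp) and TwdlL (82071 bp), which stand in 1 array. Several neighbours shared 1 nearest joint summit at the TSS of another gene. For 8 cuticle protein genes it lay at bcd, the gene for the anterior morphogen Bicoid, and for 7 at amon, which encodes a proprotein convertase. Both genes were named after their values were seen.

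Arrays were defined as 3 or more cuticle protein genes with at most 20 kb between neighbours. There were 15, holding 87 genes, from 3 to 17 in each, over 243 kb in all. They held 5 joint summits, or 0.206 per 10 kb, against 0.471 per 10 kb over the 4 arms that carry them. With the strongest peaks of replicate 1 there were 4 summits (0.164 against 0.470 per 10 kb), and with those of replicate 2 there were 3 (0.123 against 0.471). The whole pooled list placed 26 summits in arrays, or 1.07 per 10 kb against 2.24 on the same arms.

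The 5 arrays with a joint summit held 1 each: Cpr47Ea to Cpr47Eg (7 genes, 2R), Cpr62Ba to Cpr62Bc (3 genes, 3L), Lcp65Ag3 to Cpr65Az (17 genes, 3L), Cpr65Ea to Cpr65Ec (3 genes, 3L) and Cpr72Ea to Cpr72Ec (3 genes, 3L). The Cpr72E array, 4.74 kb long, was the one with joint summits both inside it and close to its edge, that of Cpr72Ea lying 275 bp outside. A stronger joint peak lay farther out on the same side (3L, 16361214 to 16361543), with a signal of 1020 and rank 284. Its summit was 1947 bp from the TSS of the flanking gene ringer. The largest array, with 17 genes for larval and other cuticle proteins over 31.2 kb, held the single summit between CG13297 and Acp65Aa.

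The other 10 arrays had no joint summit, and 7 of the 15 had none in the pooled list either. The array from Edg84A to Ccp84Aa, 8 genes over 20.5 kb on 3R between the homeotic genes lab and pb, lay in the longest of their intervals free of joint summits, 332 kb. The nearest joint summits were 257 kb to its left and 54.8 kb to its right. The array from TwdlM to TwdlD, 12 Tweedle genes over 21.9 kb on 3R, lay in a free interval of 171 kb, with the nearest summits 75.5 and 73.3 kb away. Those of Lcp1 to Lcp4, genes for the major larval cuticle proteins, TwdlF to TwdlV and Cpr49Aa to Cpr49Ah lay in free intervals of 117, 105 and 101 kb. The intervals were shorter around Cpr64Aa to Cpr64Ad (69.8 kb), Cpr67Fa1 to Cpr67Fb (45.3 kb), Cpr76Ba to Cpr76Bd (40.6 kb), TwdlX to Twdlalpha (27.4 kb) and Cpr78Ca to Cpr78Cc (18.6 kb).

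**Figure D4:**
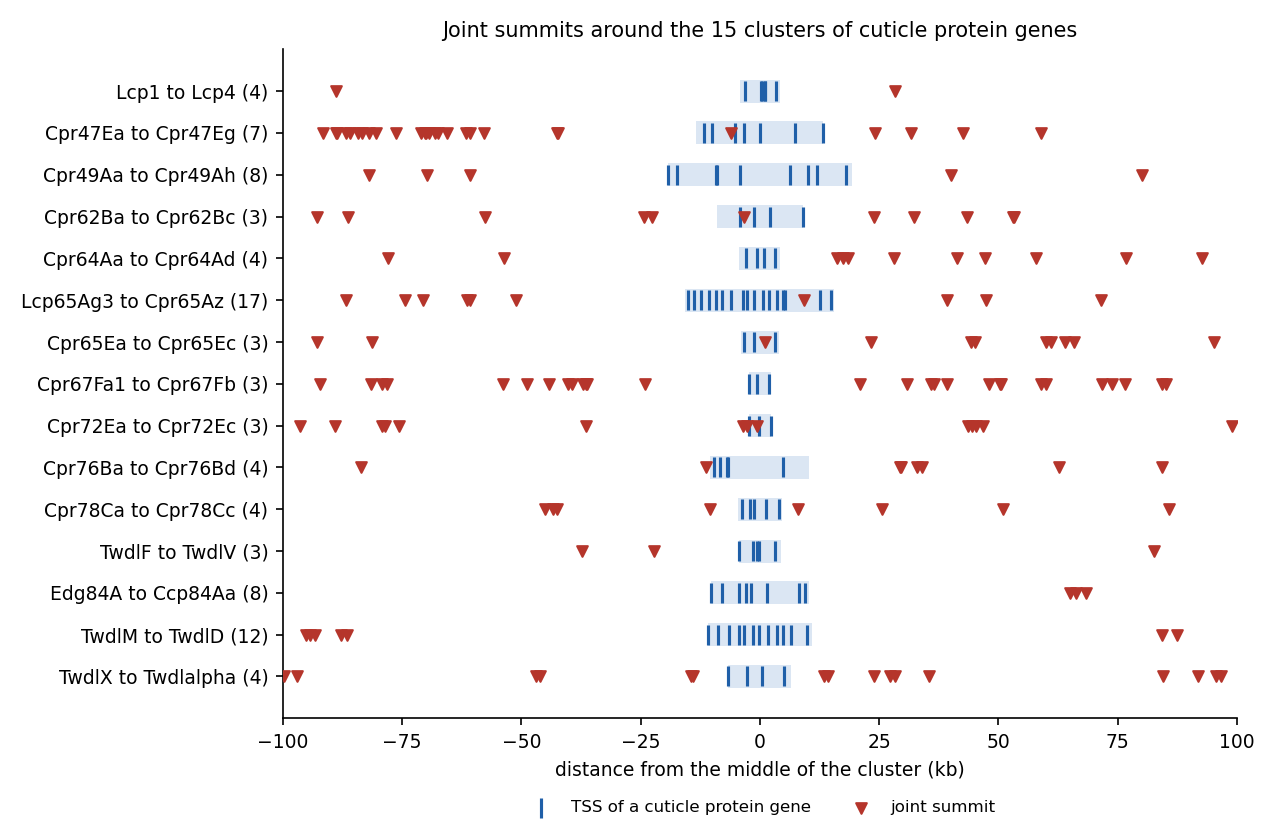
Position of joint summits (triangles) and of TSSs of cuticle protein genes (ticks) within 100 kb of the middle of each of the 15 arrays (horizontal axis, kb; shaded bar, extent of the array; number of genes in brackets). In 10 arrays no triangle falls on the shaded bar, and the panels of TwdlM to TwdlD and Edg84A to Ccp84Aa are empty for more than 50 kb on either side.

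Gaps of this size were not limited to cuticle genes. Neighbouring joint summits on the 4 arms were a median of 6.42 kb apart and the 95th percentile of the 5126 gaps was 75.5 kb. The 172 gaps over 100 kb covered 29.4% of the bases of these arms. Inside such gaps lay 44 of the 129 cuticle protein genes (34.1%), against 20.4% of all protein-coding genes. Of the 44, 35 belong to 5 arrays, so this share rests on few places in the genome.

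Genes flanking the arrays carried a joint summit at their TSS in 4 of 30 cases (13.3%), close to the 17.4% of all protein-coding genes, at 3 arrays. Beside the Cpr78C array, CG11309 had the strongest of these, 87 bp from its TSS (3L, 21304400 to 21304749), with a signal of 2671 and rank 16 in the joint list. The same summit lay 126 bp from a TSS of CG7632. On the other side of the array, pzg, which encodes a chromatin-associated zinc-finger protein, had one at 109 bp with rank 2788, and that summit lay 28 bp from a TSS of CG12974. Position does not assign these peaks to one gene of each pair. GV1, beside the Cpr62B array, had one at 177 bp with rank 1050. The cell polarity gene scrib, beside the array from TwdlM to TwdlD, had one at 485 bp with rank 3753. Flanking genes were chosen by their nearer end, and the TSS can lie far from the array. The GV1 summit was 13.7 kb from its array and the scrib summit more than 75.5 kb from its own. Of 17 other genes that overlap the arrays, 1 had a joint summit at its TSS. It was goe, at 114 bp and rank 3812. Its transcribed span holds TwdlX, TwdlY, TwdlZ and Twdlalpha, none of which had one, and its bound TSS lies outside their array.

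The TATA box, bound by the basal transcription machinery, sets where transcription begins at many regulated genes, and promoters were searched for it to describe what the cuticle gene starts share. TATAAA on the coding strand, starting 20 to 40 bp before the gene start, occurred in 58 of the 129 cuticle protein genes (45.0%), against 927 of all 13945 protein-coding genes (6.65%). By family it was 30 of 70 Cpr genes, 10 of 25 Twdl, 9 of 15 Lcp, 5 of 7 Ccp, 3 of 3 Edg, 1 of 1 Pcp and 0 of 8 obst. The 50 bp before the start are shown for 1 gene of each family with the box, on the coding strand of the same assembly, with TATAAA in capitals.
Cpr11B, chrX:12553074-12553123, plus strand: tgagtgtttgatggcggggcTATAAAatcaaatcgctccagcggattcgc
TwdlB, chr3R:26623544-26623593, minus strand: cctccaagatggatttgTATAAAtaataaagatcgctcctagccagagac
Lcp65Aa, chr3L:6151254-6151303, plus strand: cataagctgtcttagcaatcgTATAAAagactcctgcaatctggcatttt
Ccp84Aa, chr3R:6704034-6704083, plus strand: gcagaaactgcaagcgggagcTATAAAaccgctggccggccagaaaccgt
Pcp, chr2L:7021632-7021681, plus strand: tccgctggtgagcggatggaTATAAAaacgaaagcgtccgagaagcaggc
Edg78E, chr3L:21297804-21297853, minus strand: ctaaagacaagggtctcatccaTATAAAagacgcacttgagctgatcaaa

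In these 6 genes the box began 28 to 33 bp before the start. None of the 58 cuticle genes with the box had a joint summit at a TSS, which allows up to 5.17%, against 5.39% of the 927 protein-coding genes with it. Among genes without it, 2 of 71 cuticle genes (2.82%) did, against 18.3% of 13018 protein-coding genes.

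Over the whole promoter, from 250 bp before to 50 bp after the gene start and on both strands, TATAAA occurred in 93 cuticle protein genes (72.1%), against 45.8% of all. TAATTA occurred in 21 (16.3%) against 20.4%, and TAATTG in 32 (24.8%) against 25.2%. AGGTCA, a half-site bound by nuclear receptors, occurred in 9 (6.98%) against 5.88%. The median GC content of these promoters was 44% for cuticle protein genes and 38% for all. Joint summit windows were poorer in GC, at a median of 31.7%. The part of base composition in the counts at gene starts was not tested.

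Genes that make, cut, tan or organise the cuticle and whose symbols fall outside the rule were counted from a separate list, of which 53 of 55 symbols were matched. Some are kin of the families above by another name: Tb is a Tweedle gene, Gasp belongs with the obst genes, and Acp65Aa and resilin encode proteins with the Rebers and Riddiford consensus. A joint summit lay at the TSS of 5 of the 53 (9.43%), against the 17.4% of all protein-coding genes. In the span it was the reverse: 13 of the 53 (24.5%) held one, against 13.3% of all protein-coding genes. The 53 had a median span of 5228 bp, against 2166 bp for all protein-coding genes. Among 16 chitinases and imaginal disc growth factors, 3 had one at the TSS (18.8%), near the share of all protein-coding genes. Cht7 did so at 186 bp with rank 801, Cht11 at 125 bp with rank 2011 and Idgf2 at 267 bp with rank 2903. The summit at Cht11 was also 128 bp from a TSS of CG4558, and that at Idgf2 289 bp from one of CG5888. Among 9 tanning and pigmentation genes, Pu, which encodes GTP cyclohydrolase, had one at 274 bp with rank 3975, which was also 208 bp from a TSS of CG4286. Among 10 genes of the apical matrix, tyn, a zona pellucida domain gene, had one at 225 bp with rank 3061, and 6 had one in the span. Of 10 genes of chitin synthesis and modification, none had one at the TSS, and kkv, which encodes the epidermal chitin synthase, mmy, which makes its substrate, and nst had one in the span. None of 8 other structural genes had one in either place. These groups hold 8 to 16 genes each, too few for a zero count to mark a lower share.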

How the data were processed

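ChIP-seq peak lists were used for each of 2 libraries, for their pool and for the joint list. The signal value in the deposited lists is a caller's score on an unstated scale and was used for ranks within a list. The -log10 q-value, also deposited by the authors, was used for the threshold of 0.05; all 6270 joint peaks hold its highest value. Per the deposited descriptions, peaks are on dm6 and were called against a control. Depth is unknown, and so is the precision of any 1 peak, with the caller not given in the sources used here. 0 peaks ran past an arm's end.

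Genes and TSSs came from Ensembl release 115, and sequence was read from RefSeq's copy of Release 6. Coordinates are 1-based. A summit counted at a TSS within 500 bp of any TSS of a gene. Replicate lists were compared by overlap of at least 1 bp. Zero counts in the main comparisons of cuticle protein genes are given with the share that 3 genes would make. Shares were set beside those of all protein-coding genes, with no test, as there is 1 group. Counting was tested on simulated data: 200 of 200 genes given a summit within the window were counted, and 0 of 200 with one outside it.

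The cuticle genes, lists, motifs and alternatives were chosen with earlier results of these data known. Genes were named by rule: those with a joint summit, the 10 with the strongest weaker peak, the 5 nearest and 5 farthest, array ends, and flanking, interior and listed genes with a TSS summit. The word count of 50 bases, the host genes and the genes printed for their TATA box were added after values were seen. Alternatives covered windows, peak sets, single libraries, overlap and array rules. Python 3.11.15, numpy 2.4.6 and pandas 2.3.3 were used.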

Additional observations from a re-analysis of the deposited data

How the results depend on the processing

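Of 35 recomputed values, 20 stayed within 1.5 times the reported count and 15 moved. The reported 2 cuticle genes with a TSS summit became 0 within 250 bp (13.4% of all protein-coding genes), 5 within 1000 bp (21.0%), 0 with the stronger 3135 joint peaks (9.80%) and 14 with the whole pooled list (41.4%), and ranged from 0 to 2 with 1 replicate left out. The 4 genes with a summit in the span became 1 with the stronger 3135 peaks (8.29%), 14 with the pooled list (31.4%) and 14 with 2000 bp added to either side (34.0%), and ranged from 3 to 4. In each of these settings the cuticle share stayed below that of all protein-coding genes. The 5 summits in arrays became 3 with the stronger 3135 peaks and 26 with the pooled list, ranged from 3 to 4 with 1 replicate left out, and became 9 with the pooled list cut at a q-value of 0.05, a setting chosen after seeing the data. The 3 arrays with a summit at a flanking gene became 11 with the pooled list and 7 at that q-value, and ranged from 2 to 4 with 1 replicate left out. Longer lists raise such counts everywhere: the share of all protein-coding genes with a TSS summit was 17.4% in the joint list. It was 41.4% in the pooled list and 30.1% at that q-value. The 3 peaks shared by both replicates became 6 when all peaks of each replicate counted. Limits of 10 and 50 kb between neighbours gave 16 arrays each. No paired analysis was possible because there is 1 group and no comparison between groups of samples. Read depth is unknown, so weak peaks may be missed in either library.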

Other observations

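Of the cuticle protein genes, 13 lie inside the transcribed span of another gene. Besides Pcp in Gart and the 4 Tweedle genes in goe, these are Cpr64Aa to Cpr64Ad in CG43367, obst-J in gig, TwdlT in RYa-R, Cpr11B in hwt and Cpr57A in Obp57d. Beside the Cpr64A array, ImpL2, which encodes a secreted protein that binds insulin-like peptides, held 3 joint summits in its span, the nearest to its TSS at 1075 bp and rank 74 of the joint list. No joint summit fell within the array.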
